A study of Mus musculus with 4 samples.

Results

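The genes described here are 40 genes of fatty acid oxidation and of peroxisomes, out of 16569 genes measured in mouse kidney. They were taken by name, as the array probes whose gene name in the deposited files was on a list. The list itself was chosen with earlier results of these data known. Shares of members set beside shares of all genes are therefore not those of a blind choice. Of the 40, 18 act on fatty acids in mitochondria, 19 belong to peroxisomes, 2 are transcriptional regulators (Ppara and Ppargc1a) and 1 is a cytosolic carrier (Fabp3). All 40, and all 54 of their probes, were well above background on all 4 arrays. This left no member out at the filter, which asked for 2 arrays.

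The study placed RNA from whole kidney on 4 one-colour Agilent arrays, 1 per group, from C57BL/6 mice aged 8 weeks. The groups were wild type sham, Nlrc5-/- sham, wild type after 30 min of ischemia of both kidneys and reperfusion (injured), and Nlrc5-/- after the same injury. Nlrc5 encodes a NOD-like receptor family protein that regulates MHC class I genes. The time of reperfusion is 48 h in the titles and in the design text and 24 h in the descriptions of the samples. The labels do not say which part of Nlrc5 is missing or whether any sample was pooled, so groups are named as labelled, with knockout for Nlrc5-/-.

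Proximal tubule cells of the kidney draw most of their energy from fatty acids. Long chains are activated to acyl-CoA, carried into mitochondria by the carnitine shuttle, and shortened in a cycle of dehydrogenation, hydration, a further dehydrogenation and thiolysis. Electrons pass through the electron transfer flavoprotein to the respiratory chain. Peroxisomes take very long, branched and dicarboxylic chains, pass electrons straight to oxygen to give hydrogen peroxide, which catalase breaks down, and hand shortened products to mitochondria. PPARalpha (Ppara) and its coactivator PGC-1alpha (Ppargc1a) drive transcription of many of these genes.

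Levels are log2 of the background-subtracted spot intensity minus the 75th percentile of that array, and differences are between such levels, so that 1 is 2-fold. A probe's level cannot be set against that of another probe. With 1 array per group, a difference between 2 arrays has no replicate check and no p-value, and 2-fold was used to count genes. Among 168 probes printed on at least 5 spots, the median SD of a log2 difference between 2 arrays was 0.104, which covers spots and not animals. The 75th percentile intensity was lowest on the wild type injured array, at 182, against 362 to 465 on the others. Both wild type arrays lay on 1 slide and both knockout arrays on another, scanned apart. Injured and sham kidneys of a genotype were thus compared within a slide, while genotype and slide cannot be told apart.

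The knockout sham array differed from the other 3 in its sex-chromosome genes. Xist stood at 5.20 there and elsewhere was not well above background, while 4 Y-linked genes (Ddx3y, Eif2s3y, Kdm5d and Uty) were well above background on the others only. The injury comparison in knockout and the comparison of sham kidneys therefore also set a female pattern against a male one. The 4 erythroid markers measured were highest on that array too, with a median of 3.11 above wild type sham. Their median injury difference was -2.10 in wild type and -5.97 in knockout. The part of erythroid RNA in the results on members was not tested. Proximal tubule markers, 14 genes such as Slc34a1 and Lrp2, were all well above background on all 4 arrays. Their summed level was 10.92 in sham and 10.43 in injured kidney of wild type, and 10.68 and 10.93 in those of knockout. Kap is the largest term of the sum in wild type, at 9.21 in sham and 10.11 in injured kidney. The sum therefore says little of the other markers, whose differences are given below.

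After injury in wild type, 15 of the 40 members were lower by at least 2-fold and 2 were higher, against 14.6% and 14.0% of all genes (37.5% of the members were lower). Among mitochondrial members 8 of 18 (44.4%) were lower and 0 higher, with a median difference of -0.84. Among peroxisomal members 6 of 19 (31.6%) were lower and 2 (10.5%) higher, with a median of -0.60, while the median over all genes was -0.01. In knockout, 3 of 18 mitochondrial members and 1 of 19 peroxisomal members were lower and 0 were higher, against 3.48% and 4.46% of all genes. The medians there were -0.30 and -0.12, with 0.02 over all genes.

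The same wild type arrays differed in markers of several kidney cell types. Of 14 proximal tubule markers, 11 were at least 2-fold lower in wild type injured than in wild type sham, with a median of -2.44. In knockout 1 was lower and 1 higher, with a median of -0.01. Of 10 markers of thick limb, distal tubule and collecting duct, 6 were lower in wild type and 4 in knockout, with medians of -1.17 and -0.77. Of 6 endothelial markers, 5 and 0 were lower, with medians of -1.16 and -0.38. The median injury difference of 10 tubular injury markers was 3.28 in wild type kidneys and 1.43 in knockout kidneys. In RNA of a whole kidney, fewer cells of a type and less RNA per cell cannot be told apart, and the part of these markers in the results on members was not tested.

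**Figure D1:**
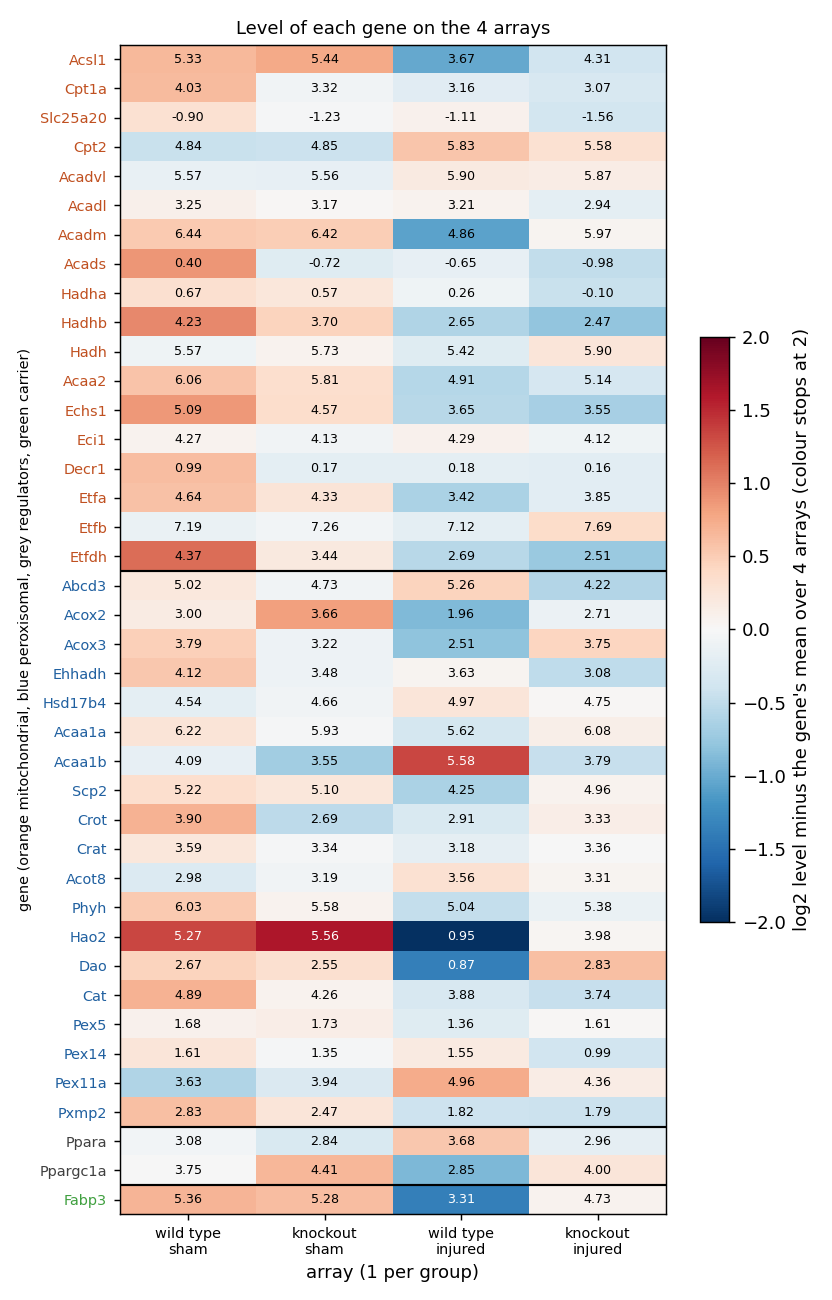
Level of the 40 genes (rows) on the 4 arrays (columns), printed in each cell as log2 intensity minus the array's 75th percentile. Colour gives the distance from the gene's own mean over the 4 arrays in log2 units, and Hao2, Dao and Fabp3 have their lowest level in wild type injured kidney, at 0.95, 0.87 and 3.31.

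The first steps bring fatty acids into mitochondria. Acsl1, which activates long chains to acyl-CoA, read 5.33 in sham and 3.67 in injured kidney of wild type, and 5.44 and 4.31 in those of knockout. Both injured arrays lay below both sham arrays. The differences were -1.67 in wild type and -1.13 in knockout, that is 3.18-fold and 2.19-fold lower. The other 2 Acsl1 probes gave -1.48 and -1.62 in wild type and -1.09 and -1.19 in knockout.

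Cpt1a makes acylcarnitine at the outer membrane and is the rate-controlling step of the shuttle. It read 4.03 in sham and 3.16 in injured kidney of wild type, and 3.32 and 3.07 in those of knockout. The wild type sham array stood above the other 3, which lay close together. Its differences were -0.86 and -0.25, and a second probe gave -1.01 and -0.45. The carnitine-acylcarnitine carrier Slc25a20 stayed within -1.56 to -0.90 on all arrays, with differences of -0.21 and -0.34.

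Cpt2, which turns acylcarnitine back to acyl-CoA inside mitochondria, ran the other way. It read 4.84 and 4.85 in the wild type and knockout sham kidneys and 5.83 and 5.58 in the injured ones. Both injured arrays were above both sham arrays, by 0.99 in wild type and 0.73 in knockout. Acadvl, the dehydrogenase of very long chains, had the same order with smaller differences of 0.32 and 0.31.

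The acyl-CoA dehydrogenases, which open each round by chain length, did not share a pattern. Acadm, for medium chains, read 6.44 in sham and 4.86 in injured kidney of wild type, and 6.42 and 5.97 in those of knockout. The wild type injured array was the low one, with a difference of -1.58 in wild type and -0.45 in knockout. Acads, for short chains, read 0.40 in sham and -0.65 in injured kidney of wild type, and -0.72 and -0.98 in those of knockout. Here the wild type sham array was the high one. Acadl, for long chains, lay between 2.94 and 3.25 on all arrays.

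Among the enzymes that complete the cycle, Hadhb, the thiolase subunit of the trifunctional protein, read 4.23 in sham and 2.65 in injured kidney of wild type, and 3.70 and 2.47 in those of knockout. Echs1, the hydratase of short chains, read 5.09, 3.65, 4.57 and 3.55 in the same order of arrays. In both genes the injured arrays lay well below the sham arrays. The injury differences were -1.57 in wild type and -1.23 in knockout for Hadhb. They were -1.43 and -1.02 for Echs1.

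Acaa2, the thiolase of the mitochondrial matrix, had differences of -1.14 in wild type and -0.67 in knockout, from 6.06 and 5.81 in the sham kidneys to 4.91 and 5.14 in the injured ones. Hadha, the other subunit of the trifunctional protein, differed by -0.41 and -0.67. Of its 2 dimmer probes, the first gave 0.69 in wild type and 0.19 in knockout, and the second -0.11 and -0.12. Hadh, the dehydrogenase of short hydroxyacyl chains, stood at -0.15 and 0.17. The auxiliary enzymes for unsaturated chains were Eci1, at 0.02 and -0.01, and Decr1, at -0.81 and -0.01. A second Decr1 probe gave -1.30 and -0.31.

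The electron transfer flavoprotein carries electrons from the dehydrogenases. Its alpha subunit Etfa read 4.64 in sham and 3.42 in injured kidney of wild type, and 4.33 and 3.85 in those of knockout. Both injured arrays lay below both sham arrays, with differences of -1.22 in wild type and -0.47 in knockout. The beta subunit Etfb read 7.19, 7.12, 7.26 and 7.69 on the same arrays, differing by -0.07 and 0.43, so the subunits did not share a pattern.

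Etfdh, the oxidoreductase that passes these electrons to ubiquinone, read 4.37 in sham and 2.69 in injured kidney of wild type, and 3.44 and 2.51 in those of knockout. Injured arrays were lower by its brightest probe, with differences of -1.68 and -0.93. A second Etfdh probe gave -0.15 and 0.24, and the mean over both probes gave -0.91 in wild type.

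Across the mitochondrial members, 9 of 18 had both injured arrays below both sham arrays, against 23.9% of all genes, and 2 (Cpt2 and Acadvl) had both above, against 26.8%. The 9 were Acsl1, Cpt1a, Acadm, Hadha, Hadhb, Acaa2, Echs1, Etfa and Etfdh. Hadha and Etfdh are among the 9 by their brightest probe only. Acsl1, Hadhb and Echs1 were at least 2-fold lower in both genotypes, and among peroxisomal members Hao2 was. Of all genes 1.89% were. In knockout Echs1 lay just short of 2-fold with normexp fitted to unflagged spots (-0.992) and in the authors' values (-0.990).

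The genes of peroxisomal entry and oxidation included the member furthest from its sham level. Hao2, a hydroxyacid oxidase of kidney and liver peroxisomes, read 5.27 in sham and 0.95 in injured kidney of wild type, and 5.56 and 3.98 in those of knockout. Both injured arrays were below both sham arrays, and the wild type injured array stood far below the other 3. The difference was -4.32 in wild type, 20.0-fold lower, and -1.58 in knockout. The Hao2 probe lies at chr3:98678664-98678723 on the minus strand of mm9.

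Dao, the D-amino acid oxidase of proximal tubule peroxisomes, read 2.67 in sham and 0.87 in injured kidney of wild type, and 2.55 and 2.83 in those of knockout. Only the wild type injured array was low. The difference was -1.80 in wild type and 0.29 in knockout. Acox3, an oxidase of branched acyl-CoA, read 3.79, 2.51, 3.22 and 3.75 on the same arrays. It too was lowest in wild type injured, with differences of -1.28 and 0.53.

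Acox2, the oxidase of bile acid precursors and branched chains, was lower in both genotypes. It read 3.002 in sham and 1.96 in injured kidney of wild type, and 3.66 and 2.71 in those of knockout, with differences of -1.05 and -0.95. The knockout array was the higher one in sham and in injured kidneys. The bifunctional enzyme Ehhadh, which hydrates and dehydrogenates, stood at -0.49 and -0.40, and the other bifunctional enzyme, Hsd17b4, at 0.44 and 0.09.

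The probes of the peroxisomal thiolases Acaa1a and Acaa1b disagreed. Acaa1b read 4.09 in sham and 5.58 in injured kidney of wild type, and 3.55 and 3.79 in those of knockout, so the wild type injured array was the high one. Its differences were 1.49 in wild type and 0.24 in knockout. The brightest Acaa1a probe was lowest in wild type injured and read 6.22, 5.62, 5.93 and 6.08, with differences of -0.60 and 0.14.

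The 2 dimmer Acaa1a probes had the opposite sign in wild type, at 0.56 and 0.97, and stood at -0.16 and -0.09 in knockout. Both span more of the mm9 genome than their 60 bases and so read across an intron. One of them (0.97 in wild type) is shown with the intron-crossing probes of Dao, Acox2 and Etfa because each joins separate stretches of the genome and so belongs to spliced RNA. The longest run of bases any Acaa1a probe shares with the Acaa1b probe is 6. That compares probe with probe and not with the whole Acaa1b RNA, so it does not bear on cross-binding. Whether the Acaa1a probes also bind Acaa1b RNA was not tested. The sequences, from the deposited files in lower case and 5′ to 3′, lie at chr9:119255643-119256863 (+), chr5:114473931-114474838 (+), chr14:9058288-9062677 (-) and chr9:55312637-55330109 (-) of mm9, in the order given.
Acaa1a A_52_P155990: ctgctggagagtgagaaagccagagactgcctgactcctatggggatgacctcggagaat
Dao A_52_P452747: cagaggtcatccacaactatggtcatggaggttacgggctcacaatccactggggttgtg
Acox2 A_51_P206708: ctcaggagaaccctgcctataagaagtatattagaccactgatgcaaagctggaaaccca
Etfa A_51_P131084: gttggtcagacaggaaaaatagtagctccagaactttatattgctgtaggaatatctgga

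**Figure D2:**
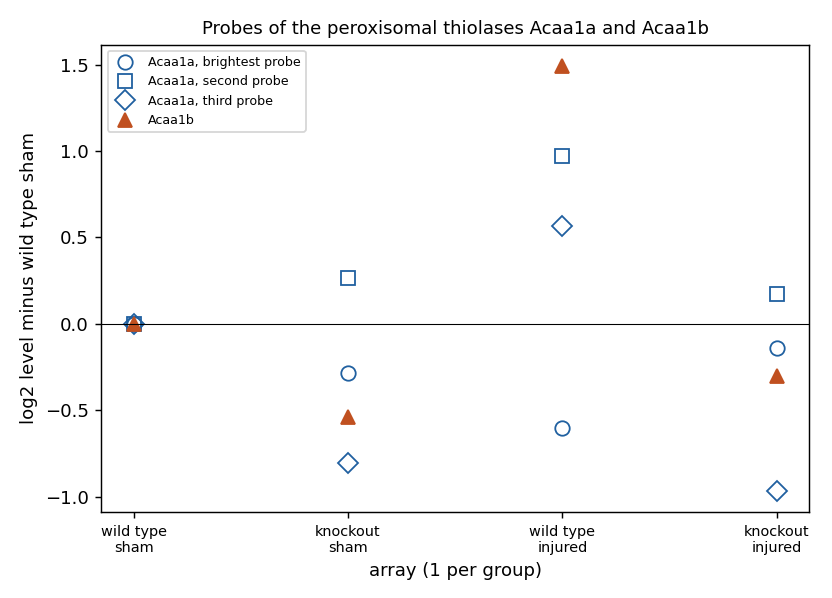
Level of 3 Acaa1a probes (open symbols) and 1 Acaa1b probe (filled triangle) on the 4 arrays, in log2 units relative to the wild type sham array. In wild type injured kidney the brightest Acaa1a probe (circle) stands at -0.60 and the other 3 probes stand between 0.56 and 1.49.

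Of the 19 peroxisomal members, 9 had their lowest level in wild type injured kidney and 5 in knockout injured kidney, against 34.1% and 20.1% of all genes. Of the 18 mitochondrial members 6 and 10 did, and the difference between the compartments was not tested. In Decr1, Eci1, Cpt1a, Echs1, Etfb and Pxmp2 the lowest array lay below the next by less than the SD between spots. By a dimmer probe Cpt1a, Decr1, Etfdh, Hadha, Acaa1a, Pex5 and Abcd3 were lowest on another array. Scp2, whose long form is a thiolase of branched chains, read 5.22 in sham and 4.25 in injured kidney of wild type, and 5.10 and 4.96 in those of knockout. The difference was -0.97 in wild type and -0.15 in knockout. Phyh, which starts the alpha-oxidation of phytanic acid, differed by -0.998 and -0.21. By unrounded values Scp2, Phyh and Crot lay just short of the 2-fold line in wild type, as Cpt2 did upward, while Cat (-1.01), Pxmp2 (-1.01), Acads (-1.04) and Acox2 (-1.05) lay just past it. With normexp Acads stood at -0.80, and Acox2, Cat and Pxmp2 lay short of the line with quantile normalization.

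Crot and Crat move acyl groups onto carnitine for export to mitochondria. Crot, for medium chains, read 3.90 in sham and 2.91 in injured kidney of wild type, and 2.69 and 3.33 in those of knockout. The sham arrays differed most, and the injured arrays lay between them. Its injury differences were -0.99 in wild type and 0.65 in knockout. A second probe gave -0.33 and 1.09. Crat, for short chains, stood at -0.41 and 0.02. Acot8, a peroxisomal thioesterase, stood at 0.58 and 0.12.

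Catalase (Cat) read 4.89 in sham and 3.88 in injured kidney of wild type, and 4.26 and 3.74 in those of knockout. Both injured arrays lay below both sham arrays, with differences of -1.01 and -0.53. The membrane channel protein Pxmp2 had differences of -1.01 and -0.67. Abcd3, a transporter of acyl-CoA and bile acid precursors, stood at 0.24 and -0.51.

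Among genes of peroxisome formation, Pex11a, which promotes division of the organelle, was higher in injured kidneys. It read 3.63 in sham and 4.96 in injured kidney of wild type, and 3.94 and 4.36 in those of knockout. Both injured arrays lay above both sham arrays, by 1.33 and 0.42. The import receptor Pex5 differed by -0.32 and -0.12, with 0.61 and 0.48 at a second, dimmer probe. Its docking partner Pex14 differed by -0.06 and -0.35. Of 19 peroxisomal members, 7 had both injured arrays below both sham arrays, against 23.9% of all genes. Pex5 is among the 7 by its brighter probe only. Another 3 (Hsd17b4, Acot8 and Pex11a) had both above, against 26.8% of all genes.

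The regulators went in different directions. Ppara, the nuclear receptor, read 3.08 in sham and 3.68 in injured kidney of wild type, and 2.84 and 2.96 in those of knockout. It was highest in wild type injured, with differences of 0.60 and 0.12. Its coactivator Ppargc1a read 3.75, 2.85, 4.41 and 3.995 on the same arrays and was lowest in wild type injured. The differences were -0.90 and -0.41, and a second Ppargc1a probe gave -1.09 and -0.49.

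Fabp3, a fatty acid carrier of heart, muscle and brown fat, read 5.36 in sham and 3.31 in injured kidney of wild type, and 5.28 and 4.73 in those of knockout. The wild type injured array was the low one, with differences of -2.05 and -0.55. Markers of fat also differed between these arrays. The summed level of 7 adipocyte markers was 5.52 in sham and 3.06 in injured kidney of wild type, and 3.74 and 3.30 in those of knockout. Of these markers 6 were well above background in wild type sham and 4 on each other array. Adipoq and Plin1, which define fat cells, were so in wild type sham only, while Cidec read 1.70 in sham and 1.83 in injured kidney of wild type. The summed level of 6 brown fat markers, Fabp3 included, was 6.16 and 4.44 in wild type and 5.88 and 5.34 in knockout. Fabp3 is itself the largest term of that sum on each array, so the sum is no separate measure of fat. Among the other markers Cidea stood at 2.73 in wild type sham and between -4.13 and -3.71 on the other arrays. Cox7a1 read 4.02 and 1.15 in wild type and 4.09 and 3.36 in knockout. The wild type sham array, where Adipoq, Plin1 and Cidea were highest, enters every wild type injury difference and the comparison of sham kidneys. The part of fat tissue in the results on Fabp3, on the other members and on the related lists was not tested.

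**Figure D3:**
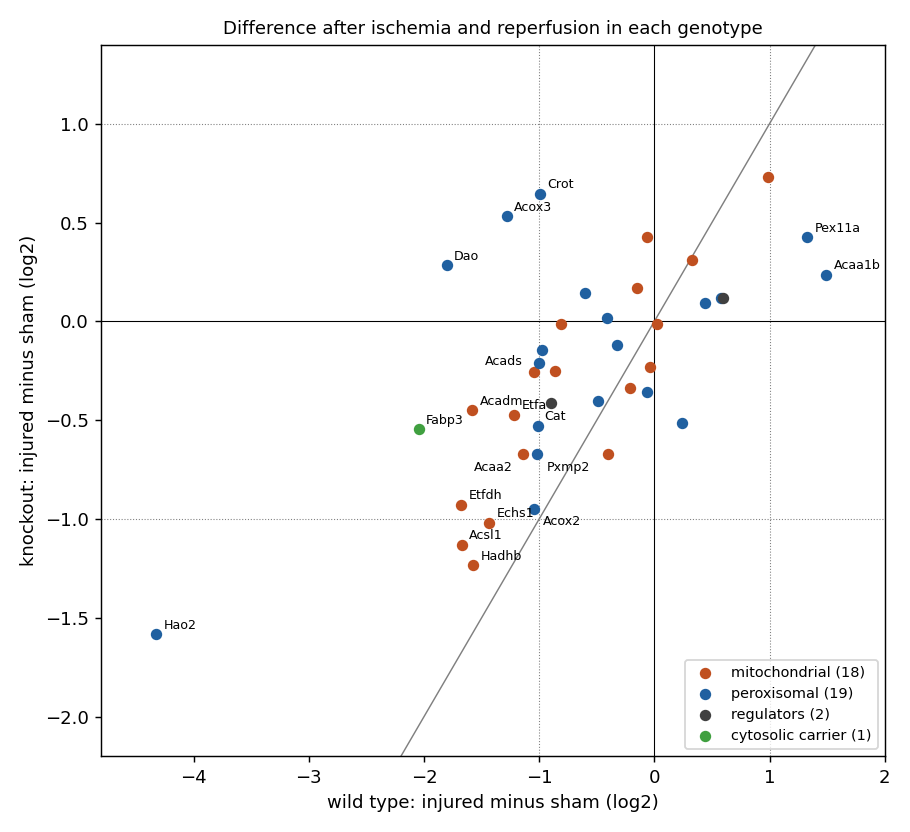
Injured minus sham kidney for the 40 genes, wild type on the horizontal and knockout on the vertical axis, both as log2 differences on different scales. The grey line marks equal differences and dotted lines mark 2-fold, and Hao2 lies furthest left, at -4.32 and -1.58, while Dao, Acox3 and Crot lie below 0 in wild type and above 0 in knockout.

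Limma fits over all 4 arrays, with genotype and treatment as additive terms, left 1 residual degree of freedom, and a true difference between the genotypes' responses counts as error in them. For injury, 0 members and 0.0% of all genes passed at 0.05 after Benjamini-Hochberg adjustment, and among members the smallest adjusted p was 0.432. Without adjustment, 9 members had p under 0.05 (Acsl1, Cpt2, Hadhb, Acaa2, Echs1, Etfdh, Acox2, Hao2 and Pxmp2) against 11.3% of all genes. For genotype 0 members and 0.0% of all genes passed by limma, with a smallest adjusted p of 0.767, and unadjusted 1 member (Ppargc1a) against 5.46%. This was not so after another background correction. When normexp was fitted to spots that carry no flag, limma called 1102 of 16568 genes for injury, among them 8 members (Acsl1, Acadm, Hadhb, Echs1, Etfdh, Acox2, Hao2 and Fabp3), and 176 genes for genotype, among them Hao2. The prior degrees of freedom that limma estimated across genes were 71.6 there and 2.47 here, with 1 from the arrays themselves in each. The p-values here reflect no more than how these 4 arrays vary.

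Of the injured kidneys, which both had a male pattern, knockout was higher than wild type by at least 2-fold in 6 members and lower in 2, against 10.9% and 7.28% of all genes. The higher ones were Hao2 by 3.03, Dao by 1.97, Fabp3 by 1.43, Acox3 by 1.25, Ppargc1a by 1.15 and Acadm by 1.12. The lower ones were the thiolase Acaa1b, at -1.79, and the transporter Abcd3, at -1.04. Abcd3 was less than 2-fold lower with normexp fitted to unflagged spots (-0.948), quantile normalization (-0.990), the authors' values (-0.920) and the mean over probes (-0.839). With normexp on all spots the higher calls of Fabp3 (0.919), Acox3 (0.746), Ppargc1a (0.707) and Acadm (0.926) were lost. The 2 dimmer Acaa1a probes, at -1.53 and -0.80, had the sign of Acaa1b, while the brightest stood at 0.46. The dimmer Abcd3 probes gave -0.94 and -0.53.

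By compartment, 3 of 19 peroxisomal members were higher and 2 lower, with a median of 0.18. Of 18 mitochondrial members 1 was higher and 0 lower, with a median of -0.10, against 0.04 over all genes. The count of higher members, 15.0% of 40, was near the share of all genes. The 14 proximal tubule markers were higher in 9 cases and lower in 1, with a median of 1.70. This comparison shares the wild type injured array with the wild type injury comparison, so the same level enters both.

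Between the sham kidneys 0 members were higher in knockout and 2 were lower by at least 2-fold, against 4.7% and 3.12% of all genes. The lower ones were Crot, at -1.21, with -0.90 at its second probe, and Acads, at -1.12. Medians were -0.19 for mitochondrial and -0.26 for peroxisomal members, with 0.04 over all genes. Proximal tubule markers stood at a median of -0.28. The 10 kidney genes listed here as higher in male mice had a median of -3.10, with 7 at least 2-fold lower. The 7 listed as higher in females had a median of 0.998, with 3 at least 2-fold higher (the knockout sham array is the one of female pattern). Whether each listed gene differs by sex was not tested. The balance of genes 2-fold higher to lower depended on the scaling here: 60.1% of calls over all genes were higher, against 40.8% with median scaling.

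The difference of the injury responses, knockout minus wild type, was at least 2-fold for 6 members upward and 1 downward, against 11.9% and 10.3% of all genes. Upward were Hao2 by 2.74, Dao by 2.09, Acox3 by 1.81, Crot by 1.63, Fabp3 by 1.5002 and Acadm by 1.13, and downward was Acaa1b at -1.26. This difference uses all 4 arrays and has no test. In 4 members (Dao, Acox3, Crot and Abcd3) the injury differences had opposite signs in the genotypes, both past 2 times the SD between spots, against 11.7% of all genes. With normexp on all spots Dao and Acox3 had 1 sign in both. For Crot it rests largely on the sham kidneys, which differed by -1.21 against 0.42 in the injured ones. Hao2, Dao and Fabp3 differed by 0.29, -0.12 and -0.08 between the sham kidneys.

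**Figure D4:**
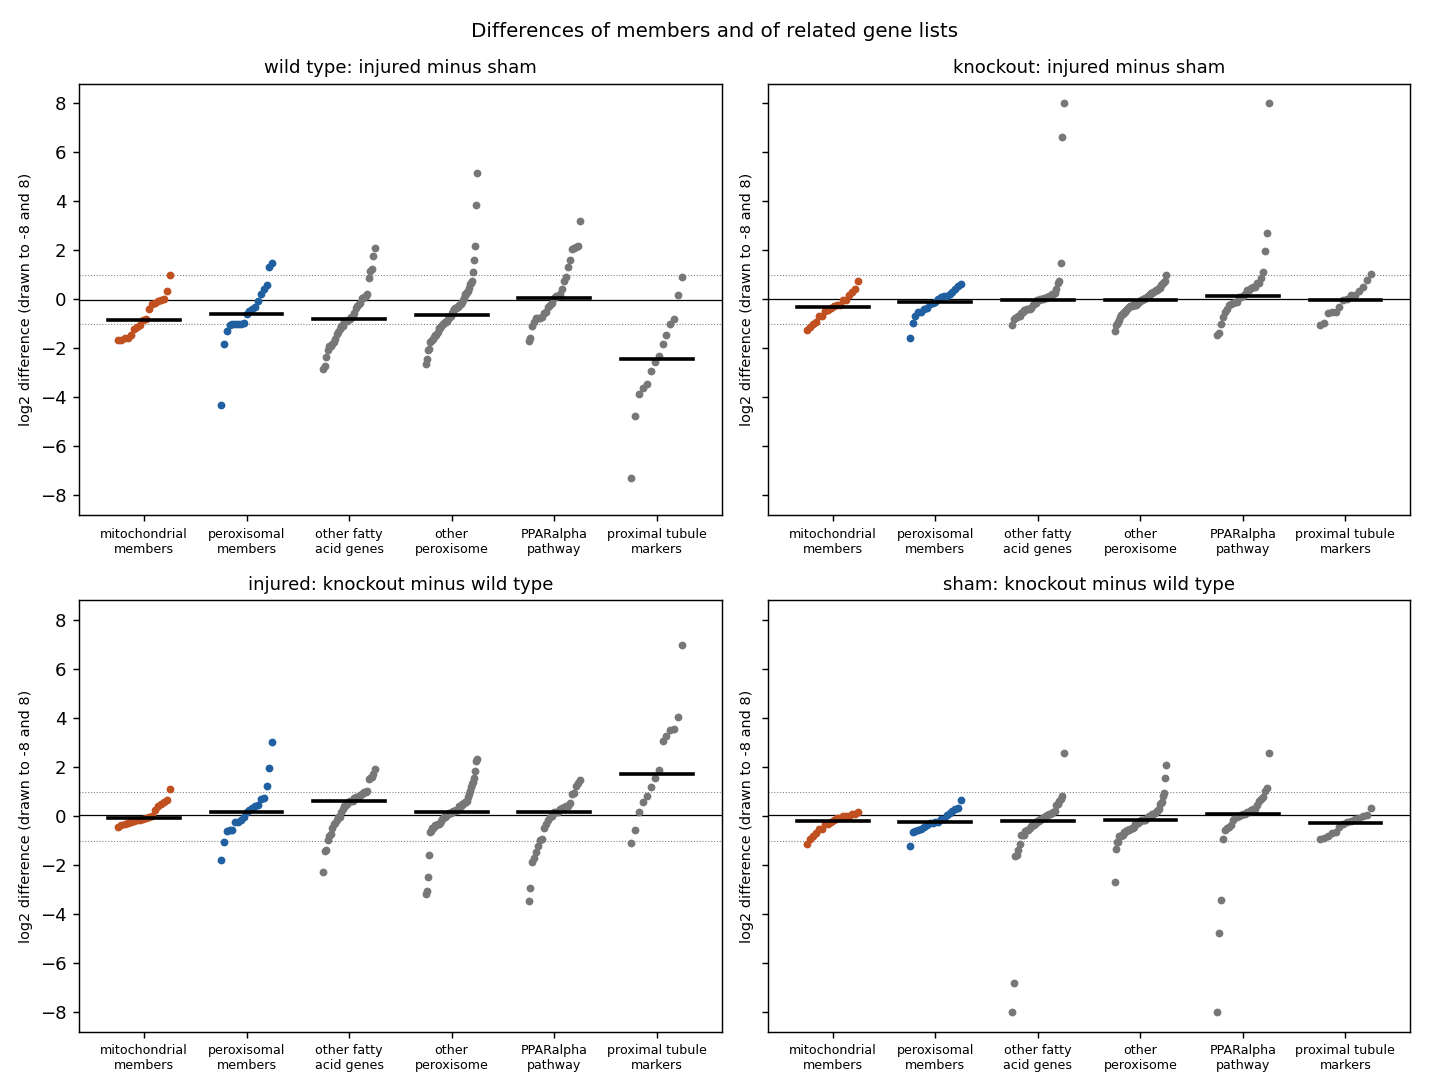
Log2 differences of each gene (points, sorted within a list) in 4 comparisons, for mitochondrial and peroxisomal members, 3 lists of related genes and proximal tubule markers. Thick bars are list medians, the thin line is the median of all genes, dotted lines mark 2-fold and points past 8 or -8 are drawn there; the proximal tubule median is -2.44 in wild type and -0.01 in knockout.

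Other genes of mitochondrial and cytosolic fatty acid use were counted from a list of 38, of which 36 were measured above the filter. In wild type injury 14 were at least 2-fold lower (38.9%, against 14.6% of all genes) and 4 higher, with a median of -0.82. In knockout 1 was lower and 3 higher (2.78% and 8.33%, against 3.48% and 4.46% of all genes), with a median of -0.03. Of the 3, Acot1 was not well above background in knockout sham. Acsm3 (6.64) and Cd36 (1.49) had their lowest level on that array of female pattern. Acad11, a dehydrogenase of very long chains, stood at -2.83 in wild type and -1.03 in knockout. Lpl, lipoprotein lipase, stood at -2.71 and -0.04, and Oxct1, which lets cells burn ketone bodies, at -2.05 and -0.03. Fabp4, a carrier of fat cells and endothelium that is also an adipocyte marker here, stood at -2.33 and -0.55. Higher in wild type were Fabp1, the liver-type carrier, at 2.11, the acyl-CoA synthetases Acsl4 at 1.75 and Acsl5 at 1.15, and the thioesterase Acot7 at 1.23. In knockout these 4 stood at -0.50, -0.43, -0.38 and -0.38.

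Of 52 other peroxisome genes 50 passed the filter. In wild type injury 17 were lower and 5 higher (34.0% and 10%, against 14.6% and 14.0% of all genes), with a median of -0.63. In knockout 2 were lower and 1 higher (4% and 2%, against 3.48% and 4.46% of all genes), with a median of -0.05. Pecr, a reductase of unsaturated acyl-CoA, stood at -2.65 in wild type and 1.01 in knockout. Amacr, the racemase of branched chains, stood at -2.45 and 0.74, from 5.90 in sham and 3.46 in injured kidney of wild type, and 3.21 and 3.96 in those of knockout. Gstk1, a glutathione transferase, stood at -2.08 and -0.86. Slc27a4, a fatty acid transport protein, was higher in wild type by 2.17 and stood at -0.21 in knockout. Decr2, the peroxisomal dienoyl-CoA reductase, was higher by 1.62 in wild type and stood at 0.48 in knockout.

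The list of PPARalpha receptors, coactivators and targets held 29 genes, of which 27 passed the filter, and its median in wild type was 0.04. There 7 were at least 2-fold higher and 3 lower (25.9% and 11.1%, against 14.0% and 14.6% of all genes). In knockout 4 were higher and 2 lower (14.8% and 7.41%, against 4.46% and 3.48%). Of the 4, Acot1 was not well above background in knockout sham, and Cyp4a12a (2.71) and the fat cell gene Cidec (1.99) were low on that array of female pattern. The remaining one was Angptl4. Plin2, which coats lipid droplets, read 3.84 in sham and 7.03 in injured kidney of wild type, and 2.91 and 3.58 in those of knockout. The wild type injured array was far above the other 3. Its differences were 3.19 in wild type and 0.67 in knockout. Ucp2, a mitochondrial uncoupling protein, stood at 2.19 and 0.38.

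Pdk4, the kinase that holds back pyruvate oxidation, stood at 2.12 in wild type and 0.39 in knockout. Angptl4, an inhibitor of lipoprotein lipase, stood at 2.04 and 1.10. The lower ones in wild type were estrogen-related receptors Esrrb, at -1.69, and Esrrg, at -1.58, with -1.37 and -0.996 in knockout, and Ppard, whose signal in wild type injured was too near background to give a level. Esrra, another such receptor and a partner of PGC-1alpha, stood at -0.75 in wild type and 0.20 in knockout. Targets of PPARalpha thus included genes far above their sham level while Acsl1 and Acadm, also known targets, were below theirs.

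Between the injured kidneys, genes of these lists lower in knockout included Plin2 at -3.45, Slc27a4 at -2.49, Acsl4 at -2.29, Ucp2 at -1.86 and Cyp4a14, a fatty acid hydroxylase, at -1.70. Higher ones included Pecr by 2.33, Oxct1 by 1.91, Esrrb by 1.47 and Esrra by 1.24. Acot1, an acyl-CoA thioesterase, read 4.38 in sham and 3.65 in injured kidney of wild type and 2.67 in knockout injured, and its signal in knockout sham was not well above background. Cyp4a12a, a male-biased fatty acid hydroxylase of mouse kidney, was lower in knockout sham than in wild type sham, at -3.43.

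PPARalpha binds a repeat of AGGTCA in the same direction with 1 base between, and estrogen-related receptors bind TCAAGGTCA. RefSeq promoter sequence (GRCm38.p6), from 250 bases before to 50 after the start, was at hand for 35 members (not Acaa2, Decr1, Hsd17b4, Crat and Pxmp2) and searched on both strands. With at most 2 mismatches the repeat was found in 5 of 35 members (14.3%), namely Slc25a20, Echs1, Etfa, Acox2 and Cat, against 4.40% of 27025 genes. With at most 1 mismatch it was found in 0 members and 0.644% of genes, and TCAAGGTCA in 0 members and 0.466% of genes. A match of letters is a description and shows no bound factor. Matches that lie wholly before the start are shown, in capitals, with flanking sequence on the gene's strand, at chr7:140116468-140116528 (-), chr9:55512284-55512344 (-) and chr2:103485321-103485381 (-).
Echs1: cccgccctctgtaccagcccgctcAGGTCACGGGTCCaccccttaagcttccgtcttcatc
Etfa: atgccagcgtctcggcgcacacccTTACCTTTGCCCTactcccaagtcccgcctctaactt
Cat: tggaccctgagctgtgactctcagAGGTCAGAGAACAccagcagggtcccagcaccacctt

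The Etfa match is read on the opposite strand, as AGGGCAAAGGTAA. All 5 genes with a match had a negative injury difference in both genotypes, as was the case for 24 of the 40 members in all. The share of all genes with this trait was not counted, so no link of the match to injury is drawn. For Slc25a20 the differences were as small as -0.21 and -0.34.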

How the data were processed

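Kidney RNA of 4 samples was measured on 1-colour Agilent arrays, 1 array per group, with groups taken from the labels. The authors deposited scanner output with an intensity for every spot. The software was Agilent Feature Extraction. Its version is 10.7.3.1 according to the file headers, but the submitters' processing notes give 9.1. Processed intensity was background-subtracted within the array, per the file headers, and not scaled between arrays. The deposited value table holds log2 values made by the authors. How it was scaled between arrays is not given in the sources used here. Column medians were 5.91 to 5.93, and every column ranked its probes almost as the scanner values did. It served as an alternative.

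Of 43379 spots that are no controls, those with outlier flags were dropped and the spots for each probe averaged, giving 41142 probes. A level is the log2 processed intensity less the 75th percentile of its array. Other genes were named through RefSeq accessions, symbols and synonyms of GRCm38.p6, and members by the file's gene name. The probe with the highest mean level stood for a gene (21113 genes), and 16569 genes well above background on at least 2 arrays were tested. Limma (version 3.58.1 in R 4.3.3) was run on simulated data in which injury changed both genotypes alike. That run does not cover responses that differ between the genotypes. The number of arrays limits the precision.

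The 40 members, the related gene lists and the marker lists were chosen with earlier results of these data known. By rule all members are named, and of related lists the 4 largest differences each way per comparison where 2-fold; the text gives a selection of the latter. Alternatives covered background correction (normexp, offset 50), scaling, probe choice, filters and thresholds. A planned check of protein sequences was not run, and 1 probe sequence is not reported here.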

Additional observations from a re-analysis of the deposited data

Results flagged for a closer look

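In 4 members the injured kidney differed from the sham kidney in opposite directions in the 2 genotypes, each by more than 2 times the SD between spots (0.104). Of all genes 11.7% did, so the share of members, 4 of 40, was near the background. Dao, the D-amino acid oxidase, stood at -1.80 in wild type and 0.29 in knockout, a difference of 2.09. Acox3, the branched-chain oxidase, stood at -1.28 and 0.53, a difference of 1.81. Crot, the carnitine transferase of medium chains, stood at -0.99 and 0.65, a difference of 1.63, and its second probe had the same signs, at -0.33 and 1.09. Abcd3, the transporter, stood at 0.24 and -0.51, a difference of -0.75, and its other probes gave 0.16 and 0.06, and 0.55 and -0.04. With normexp on all spots the knockout values were -0.24 for Dao, -0.093 for Acox3 and 0.12 for Crot, so that Dao and Acox3 had 1 sign in both genotypes and Crot was within 2 times that SD. Abcd3 was within it in wild type with median scaling (0.13) and in knockout with the mean over probes (-0.16). With 1 array per group none of these differences was tested, and the knockout value of each uses the sham array of female pattern.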

How the results depend on the processing

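No paired analysis was possible because each group held 1 array, and no array was left out for that reason. Over 10 settings, 1571 differences of single members moved by less than the SD between spots and 429 by more. Of all 2000, 85 changed sign, the largest of them 0.75 as reported, and 0 of those of at least 2-fold did. With normexp fitted on all spots 153 of 200 moved and 28 changed sign. That fit gave the knockout injured array a background mean of -225, where 1 spot lay at -11069 after subtraction, and 0.000 without flagged spots.

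With normexp on all spots the mitochondrial medians were -0.66 for injury in knockout, -0.23 between injured kidneys and 0.11 for the response difference, and the peroxisomal medians -0.78 for injury in wild type, -0.57 in knockout, -0.19 between injured kidneys and 0.045 for the response difference. In knockout 5 mitochondrial and 4 peroxisomal members were then 2-fold lower, 0 mitochondrial members were higher between injured kidneys, and limma called 4382 genes for injury and 97 for genotype, with 15 and 0 members. Without flagged spots the mitochondrial medians were 0.019 between injured kidneys and 0.61 for the response difference, the peroxisomal medians -0.78 for injury in wild type and 0.47 for the response difference, and limma called 1102 and 176 genes. The limma counts under every other setting were 0.

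With median scaling the mitochondrial medians were -0.94 (wild type injury) and -0.34 (sham kidneys), and the peroxisomal ones -0.71 and -0.41, while the median of all genes moved to -0.12 and -0.11. With quantile normalization, and in the authors' value table, 3 peroxisomal members were 2-fold lower in wild type injury, since Acox2 (-0.974 and -0.996), Cat (-0.93 and -0.97) and Pxmp2 (-0.95 and -0.97) then lay just short. With the mean over probes the peroxisomal medians were -0.49 for injury in wild type, -0.093 between injured kidneys and 0.10 for the response difference.

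At 1.5-fold, 6 mitochondrial and 3 peroxisomal members were lower in knockout injury and 10 peroxisomal members in wild type injury, and 2 mitochondrial and 5 peroxisomal members were higher in knockout between injured kidneys. At 4-fold the mitochondrial counts were 0 in wild type injury, 0 in knockout and 0 between injured kidneys, and the peroxisomal counts 1, 0 and 1. Fewer or more genes past another threshold follow from the threshold itself; the cause of the remaining moves was not tested. The share of 2-fold calls over all genes that were higher also moved, between sham kidneys from 60.1% to 49.5% with quantile normalization, 49.2% in the authors' value table, 40.8% with median scaling and 41.2% and 41.6% with the normexp fits. For injury those fits moved it from 48.9% to 61.4% and 61.9% in wild type and from 56.2% to 89.2% and 65.9% in knockout.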

Other observations

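Genes of the related lists that act outside fatty acid oxidation proper also differed between arrays. Acsm2, Acsm3 and Acsm5 activate medium chains and aromatic acids for conjugation. Between the injured kidneys they were higher in knockout by 1.61, 1.72 and 1.57. In wild type injury they stood at -1.73, -1.89 and -1.81, and in knockout Acsm2 and Acsm5 stood at 0.65 and 0.13. Acsm3, which is also on the list of kidney genes higher in male mice, stood in sham kidneys at 4.30 for wild type and -2.51 for knockout, the array of female pattern. Baat, which joins bile acids and fatty acids to amino acids, was higher in knockout, by 2.10 among sham and 2.27 among injured kidneys.

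Peroxisomal oxidases of other substrates did not share a direction. Pipox, which oxidises pipecolic acid and sarcosine, stood at -1.54 in wild type injury and 0.46 in knockout. Uox, which oxidises uric acid, stood at -1.02 in wild type injured and, for knockout, at -4.61 in sham and -4.19 in injured kidney. Its signal in wild type sham was not well above background. Acot5, a peroxisomal thioesterase, read -4.61 in sham and -0.77 in injured kidney of wild type, and -4.09 and -3.83 in those of knockout, a difference of 3.84 in wild type and 0.27 in knockout.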
